A study of Mus musculus with 9 samples.

Results

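Skin of the transgenic mouse line LA was compared with skin of control mice (LC) on Affymetrix expression arrays, over all 12393 genes that the arrays measure by name. The comparison takes 5 of the 9 arrays of the series, LA 1 and LA 2 against LC 1, LC 2 and LC 3. The other arrays carry the transgenic lines L60 and L84, with 2 arrays each, and serve here to estimate the spread between arrays and to show where LA differs from them. By its title the study is about mice whose Akt kinase is always active, with defects of ectodermal organs and impaired signalling by bone morphogenetic proteins (BMPs). Each array received RNA pooled from whole skin of mice of 1 genotype, 30 days old and of a mixed C57BL, DBA and FVB background, extracted from 30 mg of tissue. All 4 groups share that age, tissue and background. The labels do not give the number of mice in a pool, their sex, the promoter or construct of each line, or how LA differs from L60 and L84. P-values therefore measure the spread between these pools.

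Akt is a serine-threonine kinase that is switched on downstream of phosphoinositide 3-kinase, promotes growth and protein synthesis, and keeps FOXO transcription factors out of the nucleus. The hair follicle cycles through growth, regression and rest. During growth, dividing matrix cells at the base of the follicle give rise to the inner root sheath and to the hair shaft, whose cells fill with hair keratins and keratin-associated proteins, and follicle melanocytes hand pigment to the shaft. BMP signals, passed on by Smad proteins and restrained by inhibitory Smads and by the decoy receptor Bambi, drive matrix cells to differentiate into the shaft through regulators such as Msx2, Foxn1 and Hoxc13.

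The deposited values are scores with mean 0 and SD 1 for each probe set over the 9 arrays, so a difference is counted in these SDs and carries no level and no fold change. The tissue label could not be checked against marker levels for that reason. A gene was called when limma's linear model, fitted to all 9 arrays without variance moderation, gave a p under 0.05 after Benjamini-Hochberg adjustment across the 12393 genes. The Affymetrix control probe sets for 18S RNA stood high on the first array of LC, L60 and L84 (averages of 1.13, 2.09 and 0.339, against -0.625 and -0.584 on the LA arrays). Gene scores were spread most widely on LA 2 (SD 1.2, against 0.836 on LA 1 and 0.676 to 0.699 on the LC arrays). Over all genes the 2 LA arrays correlated with r = 0.229, and LC 2 and LC 3 with r = 0.604. LC 1 correlated with LC 2 at 0.153 and with LC 3 at 0.103. The pairs of the other lines gave -0.0228 for L60 and -0.296 for L84, and LA 2 correlated with L84 2 at 0.337. The genes are not independent replicates in these correlations. Xist, which is transcribed from the inactive X chromosome of female cells, scored -0.92, 0.604 and 0.63 on the LC arrays, -0.900 and 1.49 on L60, -1.06 and 0.904 on L84 and -0.82 and 0.08 on the LA arrays, so that the array numbered 1 was the lowest of each group. Because the tissue is bulk skin, fewer cells of a type and less RNA per cell cannot be told apart in any of the results.

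Of the 12393 genes, 223 were called in LA against LC, which is 1.8% of them. LA was higher for 101 genes (0.815%) and lower for 122 (0.984%). Called differences had a median of 2.22 SDs among the higher and -2.07 among the lower genes. The smallest called difference was 0.836, and the largest were a rise of 2.52 and a fall of 2.49. The LA arrays lay wholly above the LC arrays for 27.8% of all genes and wholly below them for 21%, together 48.8%, and counts of non-overlapping members are read against these shares. The median difference over all genes was 0.247, and it was 0.115 once each array's median was set to 0. Under that centring 35.3% of the called genes were higher in LA, against 45.3% as deposited, and under quantile normalisation 26.7% were.

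**Figure D1:**
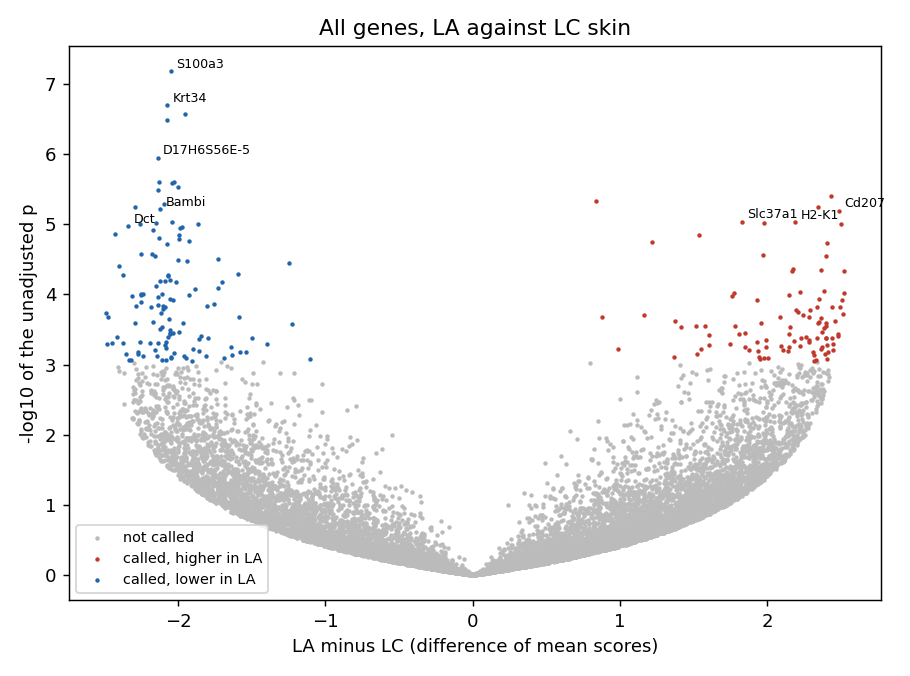
Difference of mean scores between LA (n = 2 arrays) and LC (n = 3) on the horizontal axis, in SDs, against -log10 of the unadjusted p of limma's linear model on the vertical axis, 1 point per gene. Red points are the 101 genes called higher and blue points the 122 called lower. S100a3 has the smallest p, and called differences reach 2.52 SDs on the higher and -2.49 on the lower side.

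The number called depended on single arrays. It was 97 without LC 1, 45 without LC 2, 51 without LC 3, 40 without LA 2 and 185 without LA 1. It was 97 without either L60 array and 306 without either L84 array, although these arrays enter only through the spread. With replicate number as a block, which leaves 3 residual degrees of freedom, it was 1. With variance moderation 0 genes were called (3223 at an unadjusted p under 0.05, smallest adjusted p 0.115), with only the LC and LA arrays 38, and without the 3 arrays high in 18S, which leaves 2 residual degrees of freedom, 3, with 0 of the 223 genes among them. All 223 genes kept the sign of their difference in each alternative that gave them 1 value per gene, and the 37 with ties within a genotype had no value in the fit without such genes. Genes were called for a difference large against its SE, and several alternatives leave the difference unchanged, so few signs could turn. Of 74 called genes with several probe sets, 68 had all of them on the same side. The calls were made on the average of these probe sets, so this agreement is no separate support. A core of 27 genes, 19 of them lower and 8 higher, was called in each of the 9 fits that left out 1 array. The 19 lower ones include the hair keratins Krt31, Krt33a, Krt34, Krt35 and Krt86, the inner root sheath genes Krt25 and Tchh, the keratin-associated protein gene Krtap9-3, and S100a3. The 8 higher ones include Cd207, Krt77, Gem, Cyp2d22 and Hsd3b7. These examples were chosen after their values were seen.

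**Figure D2:**
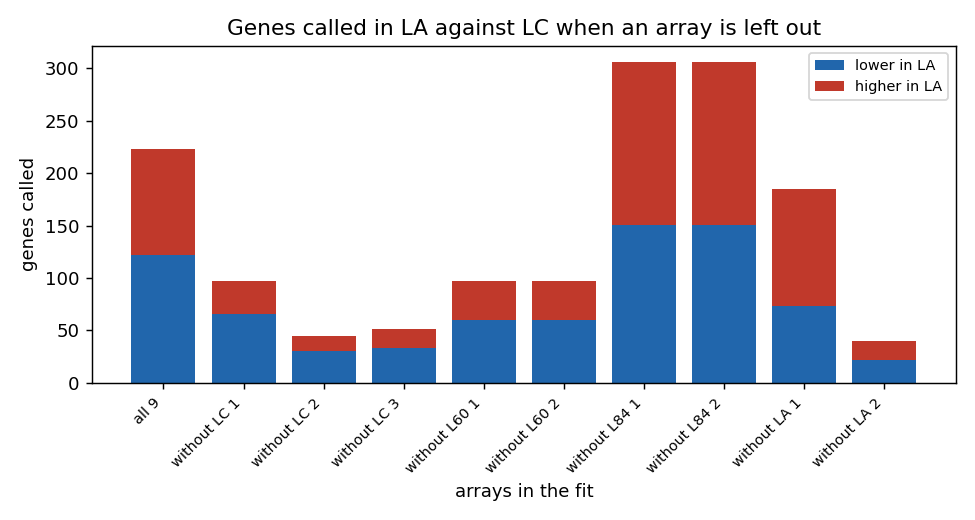
Number of genes called in LA against LC (adjusted p under 0.05, limma's linear model) with all 9 arrays and with each array left out in turn. Blue bars count genes lower in LA and red bars genes higher in LA. The count runs from 40 without LA 2 to 306 without either L84 array, against 223 with all arrays.

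The largest called fall was that of Eef1e1. This gene, a scaffold subunit of the complex that holds several aminoacyl-tRNA synthetases, scored 1.18, 1.12 and 0.69 on the LC arrays and -1.71 and -1.27 on the LA arrays and fell by 2.49 ± 0.253 (SE, adjusted p = 0.023). Both LA arrays lay below all LC arrays by more than the LC arrays spread. Mrpl36 and Mrps12, proteins of the mitochondrial ribosome, fell by 2.48 (adjusted p = 0.0382) and 2.403 (adjusted p = 0.0102). Elp5, a subunit of the Elongator complex that modifies tRNA, fell by 2.48 (adjusted p = 0.0246), and Gar1, a core protein of the particles that guide pseudouridylation of RNA, by 2.38 (adjusted p = 0.0376). The L60 scores of Elp5 were tied at 0.158, which narrows the spread its test uses. Mt4, a metallothionein of stratified epithelia, fell by 2.45 (adjusted p = 0.0376), the leucine aminopeptidase gene Lap3 by 2.43 (adjusted p = 0.00558) and Sesn3, a sestrin gene induced by FOXO factors, by 2.42 (adjusted p = 0.0347). Hmgn5, Tmem53, Dct and Kcnh1 completed the 12 largest called falls, with values between 2.34 and 2.38 SDs. Most of these genes scored lower on LA 2 than on LA 1, as for Elp5 (-1.44 and -1.82 on LA 1 and LA 2).

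The largest called rise was that of Rnase4, a secreted ribonuclease. It scored -1.04, -0.92 and -0.92 on the LC arrays and 1.84 and 1.296 on the LA arrays, a rise of 2.52 ± 0.223 (SE, adjusted p = 0.0169). Il1r2, the decoy receptor for interleukin 1, rose by 2.52 (adjusted p = 0.0112), and Cd207, which encodes langerin, the lectin that defines Langerhans cells of the epidermis, by 2.49 (adjusted p = 0.00472). Tnxb and Pcolce2, encoding the matrix protein tenascin X and an enhancer of procollagen processing, rose by 2.52 (adjusted p = 0.0236) and 2.45 (adjusted p = 0.0416). Elovl2, an elongase of long polyunsaturated fatty acids, rose by 2.51 (adjusted p = 0.0184). Hsd3b7, a steroid dehydrogenase of bile acid synthesis, rose by 2.504 (adjusted p = 0.00494). Its L60 scores were tied at 0.0263, which narrows the spread its test uses. The muscle transcription factor gene Myf6 rose by 2.48 (adjusted p = 0.0347) and the sulfotransferase gene Sult1a1 by 2.48 (adjusted p = 0.0329). Akap12, which anchors protein kinase A, Entpd2, an enzyme that breaks down extracellular nucleotides, and Tmem150a rose by 2.46 (adjusted p = 0.0269), 2.45 (adjusted p = 0.0379) and 2.498 (adjusted p = 0.0202). In these 12 genes, the largest called rises, the L60 and L84 arrays lay between the LC and the LA arrays.

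**Figure D3:**
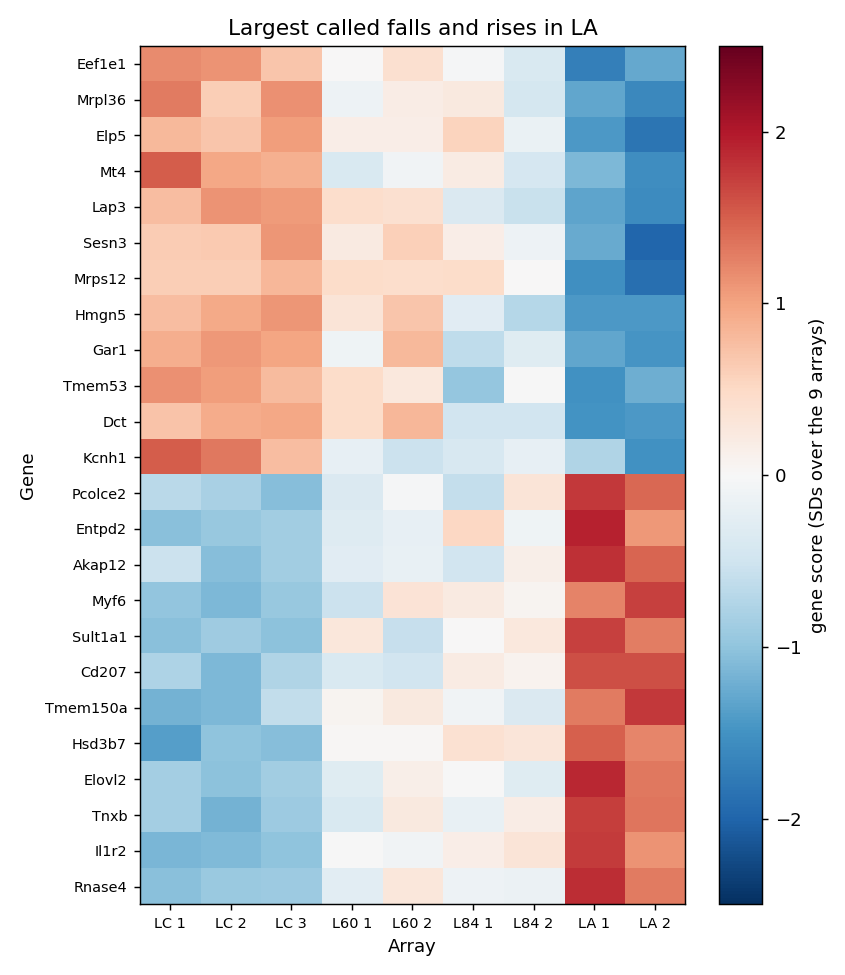
Gene scores of the 12 largest called falls (upper rows) and the 12 largest called rises (lower rows) in LA against LC, on each of the 9 arrays, with red for scores above 0 and blue for scores below 0 in SDs over the arrays. The LC columns and the LA columns have opposite colours in every row, and the L60 and L84 columns are paler. Eef1e1 spans 1.18 on LC 1 to -1.71 on LA 1.

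Of 12 hair shaft keratins 9 fell and none rose, against 0.984% of all genes called lower. All 12 had both LA arrays below all LC arrays, and their median difference was -2.07, against 0.247 over all genes. Krt86, a type II hair keratin of the cortex, scored 1.29, 1.15 and 1.14 on the LC arrays and -1.01 and -0.86 on the LA arrays and fell by 2.13 ± 0.0897 (SE, adjusted p = 0.00399). The LA scores lay close together and far below the control scores, with the L60 arrays between them at 0.03 and 0.21 and the L84 arrays beside LA at -1.02 and -0.92. Krt33b, a type I hair keratin, scored 1.195, 1.04 and 1.11 on the LC arrays and -1.16 and -0.93 on the LA arrays and fell by 2.16 ± 0.149 (SE, adjusted p = 0.00819). Krt83 and Krt36 fell by 2.14 (adjusted p = 0.0202) and 2.08 (adjusted p = 0.00627). The fits that left out 1 array called between 5 (without LA 2 or without LC 3) and 9 of the 12. None was called without the 3 arrays high in 18S.

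S100a3, an S100 protein that binds calcium in the cuticle of the shaft, had the smallest p of all genes. It scored 0.97, 0.97 and 0.98 on the LC arrays and -1.06 and -1.08 on the LA arrays and fell by 2.05 ± 0.0416 (SE, adjusted p = 0.000812). The control arrays had nearly equal scores, as did the LA arrays, and the groups lay far apart. The size of the fall was close to that of the hair keratins. Scaling each probe set to SD 1 gives genes of like array pattern like differences, whatever their fold change. S100a3 was called in all 9 fits that left out an array.

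Of 26 keratin-associated protein genes, whose products cross-link the keratin filaments of the shaft, 8 fell and none rose, and the median difference was -1.98. The LA arrays lay below the LC arrays for 24 of them and above for 1. Krtap9-3, an ultrahigh-sulfur family member, scored 1.27, 1.33 and 1.27 on the LC arrays and -0.76 and -0.93 on the LA arrays and fell by 2.13 ± 0.0949 (SE, adjusted p = 0.004). Krtap13-1 fell by 2.15 (adjusted p = 0.00494), Krtap4-16 fell by 2.100 (adjusted p = 0.0214) and the glycine-tyrosine-rich Krtap8-1 by 2.07 (adjusted p = 0.0122). Without LA 2, 1 member was called, and without either L60 array 8 were. Genes of this family are near-identical in places, so a probe set can also read a relative.

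Promoters of these genes shared a sequence feature that the choice of lists did not use. A TATA box, searched as TATAAA on the transcribed strand from 200 bases before to 30 after the start, was present in 76% of the keratin-associated protein genes with a promoter in the RefSeq table (19 of 25) and in 57.1% of the hair shaft keratins (4 of 7). It was present in 5.72% of the 9887 array genes with a promoter and in 7.24% of all 27025 promoters of the table. The core of the Lef1 site, searched as CTTTGA on both strands, was present in 24% (6 of 25) and 14.3% (1 of 7) of the same lists, against 10% of array genes. It was present in 5.26% of the promoters of the inner root sheath, cuticle and medulla list (1 of 19) and in 8.57% of those of all genes called lower, where TATAAA was present in 31.6% and 16.2%. A match is a description and not a proven site. Promoters of 4 called members of different families follow, because each carries the box. They are RefSeq sequences on GRCm38.p6, written 5′ to 3′ on the strand of the gene. Capitals mark TATAAA, and in Krt34 also CTTTGA.
Krt34, chr11:100041525-100041754, minus strand: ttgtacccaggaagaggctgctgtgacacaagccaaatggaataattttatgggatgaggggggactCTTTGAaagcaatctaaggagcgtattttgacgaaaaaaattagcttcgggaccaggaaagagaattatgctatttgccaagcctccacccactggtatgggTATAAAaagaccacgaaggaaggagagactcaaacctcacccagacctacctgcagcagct
Krtap9-3, chr11:99598077-99598306, minus strand: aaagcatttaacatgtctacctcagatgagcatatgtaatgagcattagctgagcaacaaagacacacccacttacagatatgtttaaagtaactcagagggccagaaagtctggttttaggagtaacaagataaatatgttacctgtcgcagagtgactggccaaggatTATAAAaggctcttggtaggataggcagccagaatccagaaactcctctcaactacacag
Krtap13-1, chr16:88728662-88728891, plus strand: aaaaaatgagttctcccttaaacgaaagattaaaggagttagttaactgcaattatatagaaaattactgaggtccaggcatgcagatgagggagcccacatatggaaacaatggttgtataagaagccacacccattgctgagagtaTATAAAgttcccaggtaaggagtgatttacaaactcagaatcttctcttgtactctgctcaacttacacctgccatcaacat
Krtap8-1, chr16:89487923-89488152, minus strand: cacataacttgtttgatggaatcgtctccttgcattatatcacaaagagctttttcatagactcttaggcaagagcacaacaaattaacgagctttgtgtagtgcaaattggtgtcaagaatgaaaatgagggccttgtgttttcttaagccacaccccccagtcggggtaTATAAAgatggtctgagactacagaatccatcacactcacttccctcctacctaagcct
In these windows the first base of the box lies 31 bases before the start in Krt34, 30 in Krtap9-3, 52 in Krtap13-1 and 29 in Krtap8-1. The CTTTGA of Krt34 lies 133 bases before it.

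Of 21 genes of the inner root sheath, cuticle and medulla 11 fell and none rose, with a median difference of -1.99 and 17 members below and 1 above all controls. Mt4 was the member with the largest fall, given above. Psors1c2 scored 1.296, 1.06 and 1.100 on the LC arrays and -1.104 and -0.93 on the LA arrays and fell by 2.17 ± 0.126 (SE, adjusted p = 0.00512). Krt75, a keratin of the companion layer, and Krt72, a keratin of the inner root sheath, fell by 2.08 (adjusted p = 0.0409) and 2.07 (adjusted p = 0.0347). Between 5 (without LA 2) and 11 (without LC 1) members were called when 1 array was left out.

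Among 25 regulators of the hair matrix 4 fell and none rose, with a median difference of -1.74. Hoxc13, the homeobox factor that activates hair keratin genes, scored 0.72, 1.07 and 1.07 on the LC arrays and -1.21 and -1.05 on the LA arrays and fell by 2.09 ± 0.171 (SE, adjusted p = 0.0135). Msx2 and Dlx2, homeobox factors of the matrix that respond to BMP, fell by 2.09 (adjusted p = 0.0202) and 2.12 (adjusted p = 0.0135), and Elf5 fell by 2.06 (adjusted p = 0.0135). Foxn1, whose loss gives the nude phenotype, differed by -1.74 (adjusted p = 0.0701) and was not called, although its LA scores of -0.67 and -0.33 lay below the LC scores of 1.26, 0.74 and 1.72. Lef1 and Dlx3 differed by -1.87 (adjusted p = 0.0999) and -1.75 (adjusted p = 0.143) and were not called, with the LA arrays below all LC arrays for both. None of the 25 was called without LA 2, without LC 2 or without LC 3.

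Of 21 melanocyte genes 3 fell and none rose, with a median difference of -1.41 and the LA arrays below the LC arrays for 14 and above for 3. Dct, the dopachrome tautomerase of melanin synthesis, scored 0.71, 0.93 and 0.98 on the LC arrays and -1.497 and -1.44 on the LA arrays and fell by 2.34 ± 0.133 (SE, adjusted p = 0.00496). Pmel, the fibril protein of the melanosome, fell by 2.29 (adjusted p = 0.0272) and Tyrp1, another enzyme of melanin synthesis, fell by 1.995 (adjusted p = 0.00594). No melanocyte gene was called without LA 2.

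**Figure D4:**
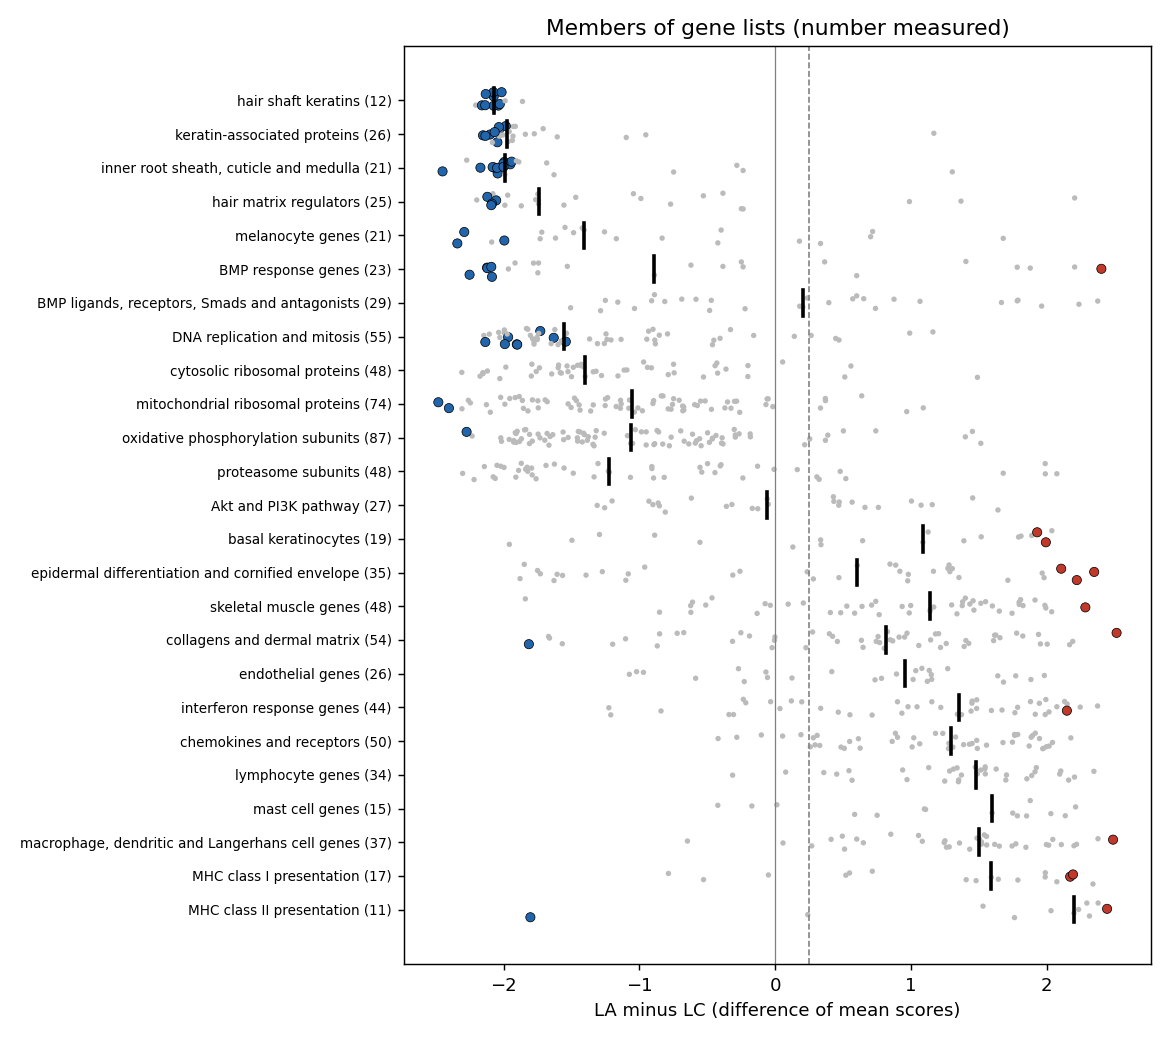
Difference of mean scores between LA and LC for the members of 25 gene lists, with 1 point per gene, the number of measured members in brackets and a black bar at each list's median. Blue and red outlined points are called genes, lower and higher in LA, and the dashed line is the median of all genes, 0.247. The hair lists sit near -2 and the antigen presentation and immune cell lists between 1.3 and 2.2.

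The BMP pathway held lower target and feedback genes beside ligands, receptors and Smads of which none was called. Of 23 BMP response genes 5 fell and 1 rose, with a median difference of -0.889. Of the 5, Msx2, Dlx2 and Hoxc13 are hair matrix regulators and are counted there too. Bambi, the decoy receptor that blocks signalling by the TGF-beta family, scored 0.96, 1.13 and 0.96 on the LC arrays and -1.13 and -1.09 on the LA arrays and fell by 2.12 ± 0.107 (SE, adjusted p = 0.00472). All 3 control arrays lay far above both LA arrays, and Bambi was called in all 9 fits that left out an array. Smad6, an inhibitory Smad that is itself induced by BMP, scored 0.901, 1.16 and 1.59 on the LC arrays and -0.998 and -1.07 on the LA arrays and fell by 2.25 ± 0.203 (SE, adjusted p = 0.0169). Tgfbi, a matrix protein induced by TGF-beta, was the member that rose, by 2.403 ± 0.261 (SE, adjusted p = 0.0272) with all 4 of its probe sets higher. Smad7, the other inhibitory Smad, differed by -1.78 (adjusted p = 0.172). The inhibitors of differentiation Id1, Id3 and Id4 differed by -1.97 (adjusted p = 0.198), -1.53 (adjusted p = 0.0849) and -1.92 (adjusted p = 0.109), with the LA arrays below the LC arrays for all 3. Id2 differed by -0.62 (adjusted p = 0.609) with overlapping arrays, and its sign turned without LA 2 and with 1 probe set. 1 BMP response gene was called as lower without LA 2, and 1 without LC 2.

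Among 29 BMP ligands, receptors, Smads and antagonists 0 were called, a list too small to set that apart from the 1.8% called over all genes. The median difference was 0.204, against 0.247 over all genes. The LA arrays lay above the LC arrays for 8 members and below for 8, against 27.8% and 21% of all genes. Bmpr1a, the type I receptor that hair shaft differentiation needs, scored 0.36, 0.68 and 0.81 on the LC arrays and -0.71 and -0.56 on the LA arrays, a difference of -1.25 (adjusted p = 0.133). The ligand genes Bmp2, Bmp4, Bmp6 and Bmp7 differed by -0.91 (adjusted p = 0.58), -0.89 (adjusted p = 0.287), 0.18 (adjusted p = 0.92) and -0.69 (adjusted p = 0.681). The signs for Bmp6 and Bmp7 changed when arrays were left out, and that for Bmp6 also under array scaling. Smad1 and Smad5, which carry the signal to the nucleus, differed by -1.04 (adjusted p = 0.519) and -1.16 (adjusted p = 0.35). The members with the largest differences were Nbl1, a secreted antagonist, at 2.38 (adjusted p = 0.0769) and the receptor gene Bmpr1b at 2.24 (adjusted p = 0.129).

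Other signalling pathways of the follicle did not stand apart from the 1.8% of all genes that were called. Of 45 Wnt pathway genes 1 fell and none rose, which is 2.2%, with a median difference of -0.0185. Sfrp1, a secreted Wnt inhibitor, scored 0.32, 0.24 and 0.42 on the LC arrays and -1.52 and -1.32 on the LA arrays and fell by 1.75 ± 0.168 (SE, adjusted p = 0.0202), with all 4 of its probe sets lower. These ordered the arrays within LC differently, with LC 1 at -0.382 in the first and 1.39 in the second, so the SE is that of their average. The L60 and L84 arrays scored 0.304 and 0.67 and 0.26 and 0.62, in the range of the controls or above it. None of the 13 hedgehog, 10 ectodysplasin, 24 Notch or 14 insulin-like growth factor genes was called. Wnt10b differed by 0.95 (adjusted p = 0.563), Shh by -0.26 (adjusted p = 0.887) and Edar, the ectodysplasin receptor, by 0.54 (adjusted p = 0.754). The LA arrays disagreed for Shh, at 1.37 and -1.69, and for Edar, at -0.04 and 1.51, and both signs turned without LA 2.

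No gene was called among 27 members of the Akt pathway, a list too small to set that apart from the 1.8% called over all genes. Its median difference of -0.0584 changed sign when an LA array was left out. Akt1 scored -0.46, -0.06 and 0.05 on the LC arrays and 0.06 and -1.61 on the LA arrays, a difference of -0.62 (adjusted p = 0.567), and Akt2 differed by 0.43 (adjusted p = 0.702). The arrays of the groups overlapped for both, and both signs turned in some alternatives. The labels do not say which Akt sequence the transgene carries or whether the probe sets read it. Of 31 FOXO factors and targets 1 fell and 1 rose, which is 6.45% of a small list, against 1.8% of all genes. Foxo1 and Foxo3, transcription factors that Akt restrains, differed by -0.96 (adjusted p = 0.343) and -0.67 (adjusted p = 0.288). Klf2, an endothelial and T cell transcription factor, scored -0.66, -0.45 and -0.26 on the LC arrays and 1.92 and 1.51 on the LA arrays, a rise of 2.18 ± 0.164 (SE, adjusted p = 0.0111). Its L60 scores were tied at -0.263, which narrows the spread its SE uses. Sesn3 was the member that fell, with -1.27 and -1.98 on the LA arrays against 0.64, 0.65 and 1.098 on the LC arrays.

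The called keratins of the interfollicular epidermis were higher in LA, where 0.815% of all genes were called higher and 0.984% lower. Of 19 genes of basal keratinocytes 2 rose and none fell, with a median difference of 1.09. Krt5, the type II keratin of the basal layer, scored -1.64, -0.88 and -1.14 on the LC arrays and 0.85 and 0.704 on the LA arrays, a rise of 1.99 ± 0.244 (SE, adjusted p = 0.0359). Krt15 rose by 1.93 ± 0.179 (SE, adjusted p = 0.0184) and also marks the bulge. Krt14, the partner of Krt5, differed by 0.13 (adjusted p = 0.899) with overlapping arrays and had the opposite sign under array centring and array weights. Of 35 genes of epidermal differentiation 3 rose and none fell, with a median difference of 0.605. Krt77, a keratin of sweat ducts and suprabasal epidermis, scored -1.34, -1.15 and -1.13 on the LC arrays and 1.19 and 1.097 on the LA arrays, a rise of 2.35 ± 0.117 (SE, adjusted p = 0.00469). Krt10, the suprabasal keratin, rose by 2.11 (adjusted p = 0.0418), and Dmkn, a secreted epidermal protein, by 2.22 (adjusted p = 0.0391). Krt1, the partner of Krt10, differed by 1.98 (adjusted p = 0.0634). The fits without 1 array called at most 1 basal and 1 differentiation gene as higher. Among 21 stress keratins and alarmins 1 fell. This was Gjb2, the gap junction protein connexin 26, which scored 0.78, 1.01 and 0.88 on the LC arrays and -1.29 and -1.12 on the LA arrays and fell by 2.09 ± 0.102 (SE, adjusted p = 0.00469). The wound keratins Krt6a, Krt16 and Krt17 differed by -1.39 (adjusted p = 0.419), -1.05 (adjusted p = 0.576) and 0.04 (adjusted p = 0.958). Krt17 changed sign under each array scaling.

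Follicle stem cell and niche lists were mixed, where 1.8% of all genes were called. Of 22 bulge markers Krt15 rose and 2 fell, Sfrp1 and the matrix glycoprotein gene Tnc, at -1.81 (adjusted p = 0.046). None of 16 dermal papilla markers, 21 sebaceous gland genes, 20 cholesterol synthesis genes, 19 adipocyte genes or 11 desmosome genes was called. The sebaceous members with the largest differences were Fabp5 and Fads2, lipid handling genes, at -1.99 (adjusted p = 0.0931) and -1.97 (adjusted p = 0.0568).

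Of 55 genes of DNA replication and mitosis 8 fell and none rose, with a median difference of -1.56 and the LA arrays below the LC arrays for 42 and above for 1. Mki67, the Ki-67 antigen of cycling cells, scored 0.74, 0.52 and 0.45 on the LC arrays and -1.45 and -1.68 on the LA arrays and fell by 2.13 ± 0.195 (SE, adjusted p = 0.0176). Mcm2 and Mcm6, subunits of the replicative helicase, fell by 1.99 (adjusted p = 0.0323) and 1.900 (adjusted p = 0.0414). Cenpa, the histone of the centromere, fell by 1.97 (adjusted p = 0.0272) and Cdc20, an activator of the anaphase-promoting complex, by 1.903 (adjusted p = 0.0492). Mean scores of the list were 0.286, 0.337 and 0.319 on the LC arrays and -1.03 and -0.815 on the LA arrays. The L60 arrays stood higher than the controls, at 0.813 and 0.818. The number called ran from 0 (without LA 2 or without LC 2) to 11 (without either L84 array), while the median stayed at -1.51 without LA 1 and -1.55 without LA 2. Among 26 G1 cyclins, kinases and inhibitors 0 were called. Cdkn1c and Cdk4 differed by -2.31 (adjusted p = 0.1) and -1.87 (adjusted p = 0.175).

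The cell cycle homology element, searched as TTTGAA on both strands, was present in 37% of the promoters of these replication and mitosis genes (17 of 46), against 9.4% of array genes and 13.9% of all promoters. It was also present in 42.9% of the hair shaft keratin promoters (3 of 7) and in 16% of those of the keratin-associated proteins (4 of 25). None of the 46 held TATAAA. Mki67 and Cdc20 are shown because both fell and hold the element, in capitals, close to the start.
Mki67, chr7:135716350-135716579, minus strand: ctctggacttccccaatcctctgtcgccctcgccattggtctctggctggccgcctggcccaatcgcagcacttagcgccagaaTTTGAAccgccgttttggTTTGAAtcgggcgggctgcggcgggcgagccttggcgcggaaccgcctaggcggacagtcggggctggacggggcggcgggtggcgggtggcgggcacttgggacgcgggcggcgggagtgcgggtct
Cdc20, chr4:118437314-118437543, minus strand: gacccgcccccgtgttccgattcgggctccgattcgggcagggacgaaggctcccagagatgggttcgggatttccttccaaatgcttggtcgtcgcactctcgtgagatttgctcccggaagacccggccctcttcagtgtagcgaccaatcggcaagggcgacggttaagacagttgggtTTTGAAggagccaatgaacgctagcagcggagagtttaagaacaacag
The element lies 116 and 98 bases before the start in Mki67 and 18 in Cdc20.

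Lists of translation, protein breakdown and mitochondria had negative medians, with few single genes called, against 1.8% of all genes. Of 48 cytosolic ribosomal proteins 0 were called, and the median difference was -1.4, with 29 members below and 1 above all controls. Of 42 translation initiation factors 1 fell, Eif4e, the cap-binding protein, by 1.11 (adjusted p = 0.0475). 1 of its 3 probe sets was higher. Mitochondrial ribosomal proteins gave 2 falls of 74, and oxidative phosphorylation subunits 1 of 87. That subunit was Ndufs5 of complex I, which scored 0.17, 0.66 and 0.900 on the LC arrays and -1.41 and -1.98 on the LA arrays and fell by 2.27 ± 0.307 (SE, adjusted p = 0.0445). None of 48 proteasome subunits was called. The median differences of the last 3 lists were -1.05, -1.06 and -1.23. These lists were much lower on LA 2 than on LA 1. Mean scores on LA 1 and LA 2 were -0.443 and -1.22 for cytosolic ribosomal proteins and -0.213 and -1.29 for oxidative phosphorylation. Without LA 2 the medians were -0.901 and -0.532, and without LA 1 they were -1.83 and -1.7. The wider spread of scores on LA 2 moves with these differences, and its part in them was not tested. Chac1, an enzyme induced by amino acid stress that degrades glutathione, scored 1.37, 1.27 and 1.204 on the LC arrays and -0.48 and -0.69 on the LA arrays and fell by 1.87 ± 0.104 (SE, adjusted p = 0.00494). It was the 1 called gene among 35 of the amino acid stress response. The L60 scores of Chac1 were tied at -0.311, which narrows the spread its SE uses. Of 25 iron and heme genes the mitochondrial iron importer Slc25a37 and the ferric reductase Cybrd1 fell, by 2.05 (adjusted p = 0.0184) and 1.399 (adjusted p = 0.0379).

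Antigen presentation lists had high medians in LA, and 1 of their 4 called genes fell. Of 17 genes of MHC class I presentation 2 rose and none fell, against 0.815% of all genes called higher. The median difference was 1.59, with the LA arrays above the LC arrays for 13 members and below for 0. H2-K1, a classical class I heavy chain, scored -1.08, -0.78 and -0.76 on the LC arrays and 1.24 and 1.41 on the LA arrays, a rise of 2.19 ± 0.121 (SE, adjusted p = 0.00494), with all 4 of its probe sets higher. B2m, the light chain of class I molecules, scored -1.25, -0.85 and -1.005 on the LC arrays and 1.26 and 1.02 on the LA arrays, a rise of 2.17 ± 0.166 (SE, adjusted p = 0.0112). The L84 arrays lay near LA for B2m at 0.69 and 0.99 and the L60 arrays near the controls at -0.51 and -0.36. H2-D1, another heavy chain read by 9 probe sets, differed by 0.55 (adjusted p = 0.252), with 6 of the 9 higher. Class I genes are alike in sequence and differ between strains, and probe sets can read relatives. None of the 17 was called without LA 2.

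Among 11 genes of MHC class II presentation 1 rose and 1 fell. Cd74, the invariant chain that guides class II molecules, scored -0.78, -0.89 and -1.01 on the LC arrays and 1.76 and 1.34 on the LA arrays, a rise of 2.44 ± 0.295 (SE, adjusted p = 0.0347). H2-Aa, H2-Ab1 and H2-DMa, chains of class II molecules and of their peptide loader, differed by 2.23 (adjusted p = 0.06), 2.296 (adjusted p = 0.0582) and 2.38 (adjusted p = 0.0707), and the LA arrays lay above the LC arrays for each. H2-Eb1, the beta chain of the H2-E molecule, went the other way. It scored 0.19, 0.18 and 0.12 on the LC arrays and -1.403 and -1.88 on the LA arrays and fell by 1.803 ± 0.174 (SE, adjusted p = 0.0202). Both LA arrays stood apart from all other arrays, since L60 scored 0.33 and 0.44 and L84 0.84 and 1.19. H2-Ea, the alpha chain of the same molecule, differed by 0.24 (adjusted p = 0.62). Neither Cd74 nor H2-Eb1 was called without LA 2 or without any 1 of the LC arrays.

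The H2 complex on chromosome 17 held another gene of the same pattern. In the RefSeq order of genes, D17H6S56E-5 lies between H2-K1 and H2-D1, as H2-Eb1 does. It scored 0.39, 0.38 and 0.42 on the LC arrays and -1.72 and -1.76 on the LA arrays and fell by 2.14 ± 0.0769 (SE, adjusted p = 0.00279), and both of its probe sets were lower. The other 7 arrays lay between 0.38 and 0.74, far above both LA arrays, and the gene was called in all 9 fits that left out an array. Of the 68 measured genes from H2-K1 to H2-D1, 3 rose (H2-K1, Tnxb and Tnf) and these 2 fell, which is 7.35%, against 1.8% of all genes. Tnf, the inflammatory cytokine, rose by 2.19 (adjusted p = 0.0363). This region was singled out after its values were seen.

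Immune cell lists had high medians in LA, mostly without called members, where 1.8% of all genes were called. Among 37 genes of macrophages, dendritic cells and Langerhans cells 1 rose, Cd207. It scored -0.78, -1.12 and -0.75 on the LC arrays and 1.61 and 1.603 on the LA arrays, and the 2 LA arrays were nearly equal and above all other arrays. The median difference of the list was 1.5, with 29 members above and 0 below all controls. Mean scores were -0.494, -0.482 and -0.437 on LC and 1.1 and 0.661 on LA, but the pairs of L60 arrays (-0.68 and 0.644) and L84 arrays (-0.76 and 0.451) disagreed. None of 34 lymphocyte genes, 15 mast cell genes or 50 chemokines and receptors was called, with median differences of 1.48, 1.6 and 1.29. The LA arrays lay above the LC arrays for 24 lymphocyte genes, 10 mast cell genes and 34 chemokine genes, and below for 0 in each list. Cd3e, a chain of the T cell receptor complex, scored -1.02, -0.98 and -0.93 on the LC arrays and 2.16 and 0.58 on the LA arrays, a difference of 2.35 (adjusted p = 0.0825). Its LA scores disagreed in size while both lay above the controls. Cd14, the lipopolysaccharide co-receptor of macrophages, differed by 2.22 (adjusted p = 0.0907).

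Of 44 interferon response genes 1 rose, which is 2.27%, near the 1.8% called over all genes. The median difference was 1.36. All controls lay below the LA arrays for 29 members (65.9%, against 27.8% of all genes) and above them for 2 (4.55%, against 21%). Irf9, the subunit of the interferon-activated ISGF3 factor that binds DNA, scored -1.05, -0.96 and -1.23 on the LC arrays and 1.06 and 1.08 on the LA arrays, a rise of 2.15 ± 0.193 (SE, adjusted p = 0.0169). Irgm1 and Usp18 differed by 2.25 (adjusted p = 0.0801) and 2.38 (adjusted p = 0.0654). Of 21 genes of the interleukin 1 family and inflammatory caspases 2 rose, Il1r2 and Casp4, the caspase that senses cytosolic lipopolysaccharide. Casp4 scored -0.34, -0.99 and -0.89 on the LC arrays and 1.53 and 1.42 on the LA arrays, a rise of 2.21 ± 0.222 (SE, adjusted p = 0.0224).

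The interferon-stimulated element, searched as GAAA followed after any 2 bases by another GAAA, on both strands, was present in 40% of promoters of the interferon response list (14 of 35) and in 20% of those of the class I list (3 of 15), against 2.32% of array genes and 2.63% of all promoters. It was present in 14.3% of the class II promoters (1 of 7) and in 9.52% of the cytosolic ribosomal protein promoters (4 of 42). B2m is shown because it rose and holds the element, in capitals, 139 bases before the start.
B2m, chr2:122147487-122147716, plus strand: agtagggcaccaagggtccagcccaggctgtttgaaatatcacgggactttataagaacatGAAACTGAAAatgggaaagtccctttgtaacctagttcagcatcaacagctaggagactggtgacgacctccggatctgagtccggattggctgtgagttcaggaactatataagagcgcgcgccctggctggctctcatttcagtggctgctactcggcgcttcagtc
That match is the only one of the searched element in this window.

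**Figure D5:**
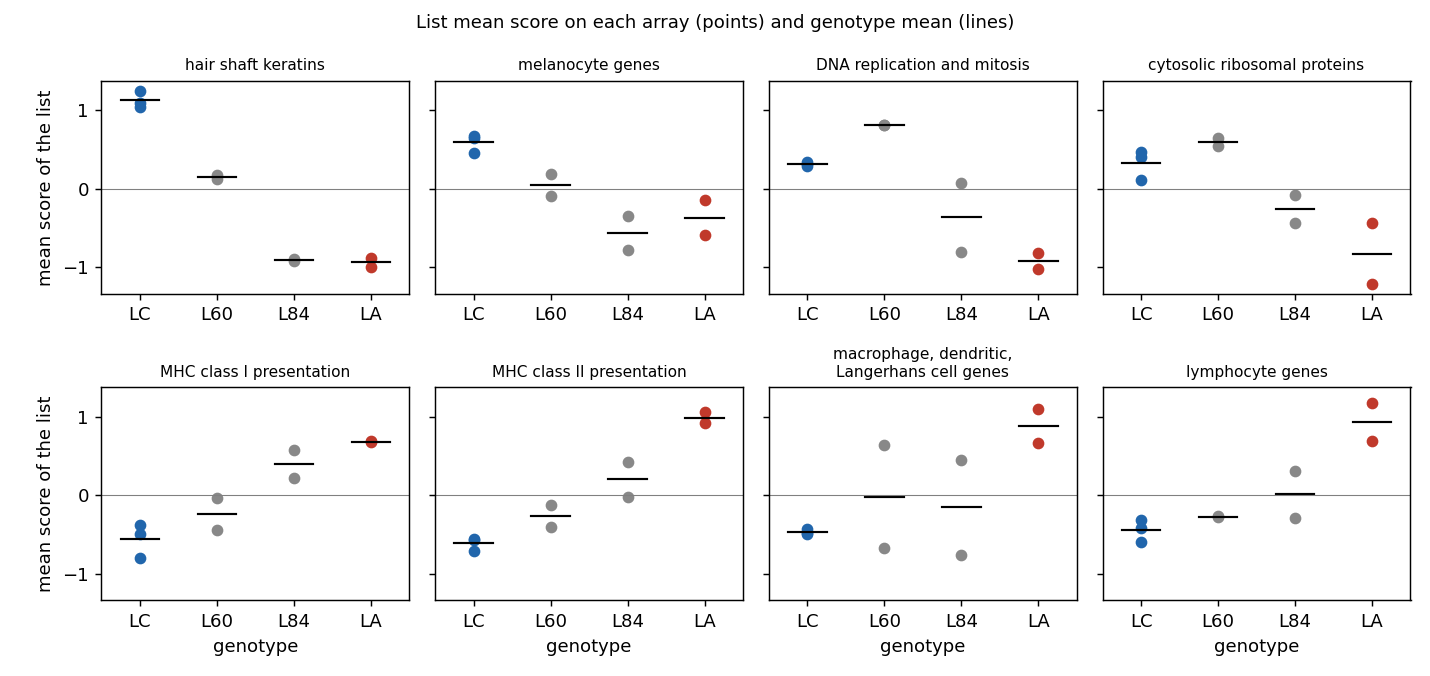
Mean score of 8 gene lists on each array, with 1 point per array, a line at each genotype mean, LC in blue, L60 and L84 in grey and LA in red. For hair shaft keratins the LA arrays sit at -1 and -0.878 beside L84 and below LC, and for MHC class II presentation at 0.922 and 1.05, above all other arrays. The cytosolic ribosomal points of LA lie apart, at -0.443 and -1.22.

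Other tissues of whole skin gave few calls, where 1.8% of all genes were called. Over all genes 27.8% lay above all controls and 21% below. Of 48 skeletal muscle genes 1 rose, Mylk2, the myosin light chain kinase of skeletal muscle, at 2.29 (adjusted p = 0.0376), and 28 lay above all controls. Myf6 rose as given above. The mean score of the muscle list was -0.309, -0.328 and -0.341 on LC, 0.683 and 0.433 on LA and 1.2 and 0.057 on L84, so that L84 1 stood above both LA arrays. Mylk, the kinase of smooth muscle and other cells, scored -0.26, -0.28 and -0.63 on the LC arrays and 1.54 and 1.63 on the LA arrays, a rise of 1.98 ± 0.136 (SE, adjusted p = 0.00819), with all 3 of its probe sets higher. Of 54 collagen and dermal matrix genes Tnxb rose and Tnc fell, with a median difference of 0.815. Mbp, a myelin protein gene read by 8 probe sets, all higher, rose by 1.78 ± 0.157 (SE, adjusted p = 0.0169), the 1 call among 16 Schwann cell and nerve genes. None of 26 endothelial genes was called, with 13 above and 0 below all controls. Among 112 detoxification enzymes 3 rose and none fell, which is 2.68%, near the 1.8% of all genes. The median difference was 1.08. The 3 genes were Sult1a1, the sulfotransferase Sult2a2 at 2.15 (adjusted p = 0.0329) and Cyp2d22, a cytochrome P450. Cyp2d22 scored -0.55, -0.59 and -0.699 on the LC arrays and 1.201 and 1.53 on the LA arrays, a rise of 1.98 ± 0.11 (SE, adjusted p = 0.00494), with the LA arrays above all others. Its 2 probe sets disagreed on the LA arrays, at 0.104 on LA 1 and 2.39 on LA 2 for the first and 2.297 and 0.668 for the second, so the small SE is that of their average. None of 18 glycolysis genes, 11 blood genes or 4 sex-linked genes was called. Of 31 Hox genes Hoxc13 fell, and of 21 immediate early genes Klf2 rose.

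Against L84, 2 genes were called in LA, which is 0.0161% of all genes. D17H6S56E-5 was lower, by -2.27 ± 0.0843 (SE, adjusted p = 0.0164), and Slc37a1, a sugar phosphate transporter gene also on chromosome 17, was higher, by 2.23 ± 0.11 (SE, adjusted p = 0.0341), each 0.00807% of all genes. Slc37a1 scored 1.85 and 1.51 on the LA arrays, -0.598 and -0.500 on L84, -0.92 and -0.88 on L60 and -0.15, -0.15 and -0.15 on LC. Its LC scores were tied, which narrows the spread its test uses. In limma fits with variance moderation and with only the LA and L84 arrays 0 genes were called, with 1557 and 491 genes at an unadjusted p under 0.05, and without L84 2 the count was 131. For 3 hair genes, picked with small SEs in this same fit, the intervals of the difference between LA and L84 were narrow. Krt86 differed by 0.03 ± 0.0983 (SE, adjusted p = 0.897), Krtap9-3 by -0.0037 ± 0.104 (SE, adjusted p = 0.988) and S100a3 by -0.06 ± 0.0456 (SE, adjusted p = 0.626). The 95% intervals of these differences, from the fit's SE on 5 residual degrees of freedom, ran from -0.22 to 0.29 for Krt86, from -0.27 to 0.26 for Krtap9-3 and from -0.18 to 0.06 for S100a3. Because these genes were picked with small SEs, the intervals can be too narrow. Some other hair genes had larger SEs. Krt75 differed by -0.097 ± 0.296 (SE), Krt72 by 0.0154 ± 0.272 (SE) and Mt4 by -1.22 ± 0.336 (SE). The median over the 12 hair shaft keratins was 0.0479, against 0.117 over all genes. For replication and mitosis the median was -0.539, for class II presentation 1.39 and for lymphocyte genes 1.02, with 0 called in each. H2-Eb1 and Cd207 differed by -2.66 (adjusted p = 0.0586) and 1.47 (adjusted p = 0.152) and were not called.

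Against L60, 78 genes were called in LA, which is 0.629% of all genes. LA was lower for 57 (0.46%) and higher for 21 (0.169%). This comparison shares the LA arrays with the one against L84 and with that against LC. The lower genes included cell cycle and RNA genes. Of the 55 replication and mitosis genes 8 were lower and none higher, with a median difference of -2.02. Mki67 scored -1.45 and -1.68 on LA and 1.05 and 0.84 on L60, a difference of -2.51 ± 0.213 (SE, adjusted p = 0.0255). Pola1, the catalytic subunit of the polymerase that primes replication, differed by -2.72 ± 0.19 (SE, adjusted p = 0.0172), Rpa3, of the single-strand binding complex, by -2.72 (adjusted p = 0.0406), and Tfdp1, the partner of E2F factors, by -2.71 (adjusted p = 0.0165). Upf1, the helicase of nonsense-mediated decay, gave -2.77 ± 0.154 (SE, adjusted p = 0.0126), and Utp20 and Lsm3, of ribosomal RNA processing and mRNA splicing, -2.74 (adjusted p = 0.0335) and -2.72 (adjusted p = 0.0413). Against LC, Pola1 (-0.853, adjusted p = 0.0895), Rpa3 (-1.56, adjusted p = 0.0624) and Lsm3 (-1.03, adjusted p = 0.126) were not called. Their mean scores on L60 were 1.58, 1.21 and 1.52, against -0.285, 0.0511 and -0.17 on LC. Tfdp1, Upf1, Utp20 and Mki67 were called lower against LC as well. Hair genes were also lower than in L60. Of 12 hair shaft keratins 5 were called, of 21 genes of the inner root sheath, cuticle and medulla 7, and of 26 keratin-associated protein genes 0. S100a3 scored 0.69 and 0.55 on L60 and differed by -1.695 ± 0.0456 (SE, adjusted p = 0.00329), and Krt86 by -1.06 ± 0.0983 (SE, adjusted p = 0.033).

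Higher in LA than in L60 were Slc37a1, by 2.58 ± 0.11 (SE, adjusted p = 0.00822), the secreted phospholipase gene Pla2g2d, by 2.51 (adjusted p = 0.042), Casp4, by 2.29 (adjusted p = 0.0415), and Ace, which encodes angiotensin-converting enzyme, by 2.26 (adjusted p = 0.0415). Cd207, H2-K1 and Mylk were higher by 2.04 (adjusted p = 0.0172), 1.95 (adjusted p = 0.0172) and 1.97 (adjusted p = 0.0192). Napsa, P2ry1, Sag and Clca3b completed the largest rises, between 2.21 and 2.36 SDs. The number called against L60 was 0 with variance moderation (2311 at an unadjusted p under 0.05), 3 with only the arrays of both groups, and between 4 (without LC 2) and 112 when 1 array was left out.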

How the data were processed

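Whole-skin RNA pools were hybridised to 9 Affymetrix arrays (LC n = 3; LA, L60 and L84 n = 2 each). The deposited values are a score per probe set. Per the submitters' processing notes RMA was used (version not given). As the deposited file shows, each probe set was standardised to mean 0 and SD 1, with scores from -2.66 to 2.67. Whether a log scale was standardised is not given in the sources used here, and 44.3% of probe sets hold tied values. Of 22690 probe sets, 64 were controls, 20380 named 1 gene, 691 several and 1555 none. Averaging the probe sets that name a gene alone gave scores for 12393 genes, 4956 of which have several probe sets.

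The linear model had a mean for each genotype (limma 3.58.1, R 4.3.3) and took all 9 arrays (5 residual degrees of freedom), without variance moderation, because the scale of a standardised score is set by the gene itself. P-values were Benjamini-Hochberg adjusted over all genes. The script was tested on simulated data. Filters on dim genes need a level and were not run. Arrays are few, which limits the precision. Gene names come from the platform annotation, checked against RefSeq on GRCm38.p6 (20351 probe sets matched, 0 symbols changed). The labels do not say that replicate numbers pair the arrays, and deviations of same-numbered LA and LC arrays correlated at -0.0416 and -0.0487. Those of same-numbered LA and L84 arrays correlated at 0.345.

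Named genes were the 12 largest called rises and 12 largest called falls with non-overlapping arrays, up to 4 called members of each of 51 lists (otherwise the 2 largest differences), a fixed set of Akt, BMP and keratin genes, and the 8 largest called differences each way against L84 and L60. The members and lists were chosen with earlier results of these data known. Alternatives left out each array or the 3 high in 18S, moderated the variance, used replicate number as a block, array weights, only the groups compared, other probe set rules, array centring, scaling or quantile normalisation, or Xist as a covariate. Leaving out genes with ties within a genotype was chosen after seeing the data.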

Additional observations from a re-analysis of the deposited data

Results flagged for a closer look

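Some genes differed between LA and another transgenic line by limma's linear model on that difference itself, at an adjusted p under 0.05 over all genes. Against L84 these were D17H6S56E-5 (-2.27) and Slc37a1 (2.23). Against L60, named genes of replication, mitosis, RNA handling and mitochondrial translation that were lower in LA were Upf1 (-2.77), Utp20 (-2.74), Rpa3 (-2.72), Lsm3 (-2.72), Pola1 (-2.72), Tfdp1 (-2.71), Mcm6 (-2.58), Mcm4 (-2.54), Mki67 (-2.51), Mcm2 (-2.47), Cenpa (-2.35) and Mrps12 (-2.17), as LA minus L60 in SDs. Other named genes lower in LA than in L60 were D17H6S56E-5 (-2.35), Dct (-2.11), H2-Eb1 (-2.02), Gjb2 (-1.95), Hmgn5 (-1.95), Sfrp1 (-1.91), Lap3 (-1.86), Hoxc13 (-1.77), Tyrp1 (-1.75), Bambi (-1.65), Psors1c2 (-1.24) and Krt86 (-1.06). Named genes higher in LA than in L60 were Krt77 (1.17), Cyp2d22 (1.53), H2-K1 (1.95), Mylk (1.97), Klf2 (1.98), Cd207 (2.04), Clca3b (2.21), Napsa (2.24), P2ry1 (2.25), Ace (2.26), Casp4 (2.29), Sag (2.36), Pla2g2d (2.51) and Slc37a1 (2.58). D17H6S56E-5 and Slc37a1 were called against LC, L84 and L60 alike, and these comparisons share the LA arrays. Rpa3, Lsm3 and Pola1 were not called against LC. With variance moderation 0 genes were called in either comparison between lines, with 1557 genes at an unadjusted p under 0.05 against L84.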

How the results depend on the processing

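All 223 genes called in LA against LC kept their direction in each alternative with 1 value per gene, except that 37 had no value in the fit without ties, and with every probe set on its own 68 of the 74 with several probe sets had all on 1 side. The kept direction follows in part from calling genes with a difference large against its SE. The agreement of probe sets follows in part from calling genes on their average. Of 1020 list medians under alternatives 893 moved by less than the spread between arrays. Part of the 1020 could not move. Variance moderation, the fit of only the 2 groups and fits without an L60 or L84 array leave LA minus LC unchanged. Counts of called genes moved more, and the cause was not tested. For LA against LC the count was 223, with 0 under variance moderation, 38 with only the arrays of the 2 groups, 3 (none of them among the 223) without LC 1, L60 1 and L84 1, and 40 to 306 when 1 array was left out. Deviations of same-numbered arrays correlated at 0.345 for LA with L84, -0.0833 for LA with L60 and 0.115 for L60 with L84. For LC with L60 or L84 they ran from -0.0537 to 0.16. The labels do not say whether the numbers pair the arrays, and these values do not settle it. With replicate number as a block the count was 1, and the same fit gave 1 against L84 and 1 against L60. For LA against L84 the count was 2. It was 0 with variance moderation, array weights, 1 probe set per gene, every probe set on its own, only the 2 groups, scaling to SD 1, quantile normalisation and Xist as covariate, where limma's unadjusted p was under 0.05 for between 491 and 1993 genes. It was 1 without genes holding ties, 10 without the 3 arrays high in 18S and 0 to 131 when 1 array was left out. For LA against L60 the count was 78. It was 0 with variance moderation, 3 with only the 2 groups, 15 with scaling to SD 1, 16 with quantile normalisation, 42 with array weights, 18 with Xist as covariate, 14 without the 3 arrays high in 18S and 4 to 112 when 1 array was left out.

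Of 183 named genes 9, none of them called, took the opposite sign somewhere. When 1 array was left out the difference ran from -1.46 to 0.221 for Akt1, -0.0878 to 0.952 for Akt2, -0.389 to 0.75 for Bmp6, -1.54 to 0.167 for Bmp7, -0.233 to 1.32 for Edar, -1.35 to 0.112 for Id2, -0.355 to 0.421 for Krt14, -0.231 to 0.207 for Krt17 and -1.78 to 1.27 for Shh. With 1 probe set per gene it was -0.0127 for Akt2 and 0.0867 for Id2. Without the 3 arrays high in 18S it was -0.0701 for Akt2, -0.0611 for Bmp6, -0.355 for Krt14 and -0.231 for Krt17. With array medians at 0 it was -0.00221 for Krt14 and -0.0975 for Krt17, with SDs also at 1 -0.0133 for Bmp6 and -0.238 for Krt17, and with quantile normalisation -0.0183 for Bmp6 and -0.204 for Krt17. With array weights it was -0.223 for Krt14 and -0.163 for Krt17, and with Xist as covariate -0.0748 for Bmp6. The medians of 8 lists changed sign somewhere: Akt and PI3K, BMP ligands and receptors, Wnt, adipocyte, blood, cholesterol, immediate early and sex-linked genes. Scores carry no signal over background, so what dimness limits could not be measured.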

Other observations

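Called genes lay on 20 chromosomes. Chromosome 11, which carries the type I keratin and many keratin-associated protein genes, held 18 lower and 6 higher genes of 1042 measured, which is 2.3%, against 1.8% of all genes. The highest share was 2.66% of 414 genes on chromosome 16, with 8 lower and 3 higher, and the lowest were 0.781% on chromosome 12 and 0 of 8 genes on the Y chromosome. Of the 223 called genes 78 belong to at least 1 of the 51 lists, and 145 to none. Some genes outside the lists were called in all 9 fits that left out 1 array, and they were picked after their values were seen. Ahcy, which hydrolyses S-adenosylhomocysteine, scored 0.75, 0.91 and 0.904 on the LC arrays and -1.21 and -1.599 on the LA arrays and fell by 2.26 ± 0.126 (SE, adjusted p = 0.00494). Capn12, a calpain protease gene of the hair follicle, fell by 2.29 (adjusted p = 0.00469), and Gem, a small GTPase, scored -0.83, -0.62 and -0.69 on the LC arrays and 1.58 and 1.85 on the LA arrays, a rise of 2.44 ± 0.113 (SE, adjusted p = 0.00452). The LA arrays did not overlap the LC arrays in any of these 3 genes.

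Ties touched 16.6% of the called genes, against 25% of all genes. A tie within a genotype, as in Chac1, Klf2, Hsd3b7 and Elp5, narrows the spread that the SE uses.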
